A study of Mus musculus with 800 samples.

Results

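Otx2, Crx, Prdm1, Thrb, Rxrg and Casz1 are regulators of photoreceptor precursors, taken here by name, and all 6 were found among the 49585 gene rows of a single-cell count table of embryonic mouse retina. They were described over the 689 of 800 cells in which at most 20% of counts came from mitochondrially encoded genes. A cell was called positive for a gene at 5 or more counts, and co-detection was counted in the Tomato- cells. The rule names the genes and uses no measured value, but the set was proposed with earlier results of these data known.

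Photoreceptors arise from dividing retinal progenitors that leave the cell cycle, and cones are among the early-born cells of the mouse retina while most rods are born later. Otx2, a homeodomain transcription factor, acts near the top of this sequence, in cells on their way to becoming photoreceptors, bipolar cells or horizontal cells. Crx, a related homeodomain factor, and Prdm1, a zinc finger repressor also called Blimp1, act after it in photoreceptor precursors. Thrb and Rxrg encode nuclear receptors for thyroid hormone and retinoids that pattern cone opsin expression, and Casz1 encodes a zinc finger factor known from mid to late retinal progenitors.

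The cells came from retinas of C57BL/6 mice at stage E15.5 carrying Sert-Cre, in which Cre recombinase is driven by the serotonin transporter gene Slc6a4, active in a subset of retinal ganglion cells (RGCs). Both groups share this stage and strain. The labels give only Tomato+ or Tomato- as the genotype, so the reporter allele and the sorting gate are not given in the sources used here. For this work 30 retinas were dissociated with papain and sorted, and no animal is named for any cell. Each group is therefore 1 sample, and values between the groups are given with no test.

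Of 400 Tomato+ cells 73 were left out by the mitochondrial limit, and of 400 Tomato- cells 38 were. Total counts ran from 9653 to 644293 per Tomato+ cell (median 271789), against 16826 to 689788 per Tomato- cell (median 243410). The cells nearest to the mitochondrial limit had 19.9% inside it and 20.1% outside it in Tomato+ cells, and 19.9% and 20.2% in Tomato- cells. Cell titles carry a number, called the title number here. Tomato+ cells carry 1 to 10, with 24 to 38 kept cells each, and Tomato- cells carry 11 to 20, with 35 to 39 each. Title numbers 8 and 10 kept the fewest cells, 27 and 24. Clustering of both groups gave 9 clusters, and 451 cells fell in 5 clusters called RGC-like. Levels are given in CPM, the summed counts of a gene in a set of cells scaled by the summed counts of all genes in those cells. Haemoglobin transcripts stood out in the Tomato+ group, with Hbb-y at 985.8 CPM against 1.32 CPM in Tomato- cells.

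Promoter sequences are shown as background, because Otx2 and Crx bind the same short element. Any link between a match and the co-detection of members was not tested. The element searched was TAATCC on either strand (GGATTA on the other), in windows from 250 bases before to 50 bases after each annotated start, taken from RefSeq on GRCm38.p6. At least 1 window of 4 of the 6 members held a match, against 8.14% of 27025 genes and 7.06% of 32851 promoters searched. A gene with more windows has more chances of a match. Otx2 had 4 windows, Thrb, Rxrg and Casz1 had 2 each, and Crx and Prdm1 had 1 each. Crx and Casz1 each held 2 matches in 1 window, as did 0.359% of all promoters. Positions are given relative to the start base, and capitals mark the match in each sequence.

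The Crx promoter (chr7:15879906-15880205, minus strand) held matches at -94 and -21, the Otx2 promoter of its start 3 of 4 (chr14:48665060-48665359, minus strand) at -211, the Thrb promoter of its start 1 of 2 (chr14:17660710-17661009, plus strand) at -46, and the Casz1 promoter of its start 1 of 2 (chr4:148889097-148889396, plus strand) at -147 and -33.
Crx: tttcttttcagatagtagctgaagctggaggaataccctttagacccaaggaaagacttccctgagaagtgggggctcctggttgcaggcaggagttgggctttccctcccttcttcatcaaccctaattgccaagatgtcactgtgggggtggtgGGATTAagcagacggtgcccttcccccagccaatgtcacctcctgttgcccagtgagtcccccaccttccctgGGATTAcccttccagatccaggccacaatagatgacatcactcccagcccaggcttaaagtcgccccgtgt
Otx2: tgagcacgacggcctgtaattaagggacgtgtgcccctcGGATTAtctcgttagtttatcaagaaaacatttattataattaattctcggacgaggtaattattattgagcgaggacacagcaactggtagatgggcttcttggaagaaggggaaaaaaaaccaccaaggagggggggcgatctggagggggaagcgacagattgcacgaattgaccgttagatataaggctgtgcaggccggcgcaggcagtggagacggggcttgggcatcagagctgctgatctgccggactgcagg
Thrb: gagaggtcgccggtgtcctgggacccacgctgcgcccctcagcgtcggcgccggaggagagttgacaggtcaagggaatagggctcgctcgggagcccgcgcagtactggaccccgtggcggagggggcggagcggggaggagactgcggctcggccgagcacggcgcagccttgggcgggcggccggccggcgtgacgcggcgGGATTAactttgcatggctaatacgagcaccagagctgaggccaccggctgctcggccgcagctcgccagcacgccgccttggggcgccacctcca
Casz1: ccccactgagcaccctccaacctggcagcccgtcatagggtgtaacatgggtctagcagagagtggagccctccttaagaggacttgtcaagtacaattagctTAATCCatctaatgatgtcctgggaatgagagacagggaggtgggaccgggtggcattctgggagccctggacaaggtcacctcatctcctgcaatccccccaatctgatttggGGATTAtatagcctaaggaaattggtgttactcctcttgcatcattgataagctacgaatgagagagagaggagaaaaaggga
The windows of Prdm1 and Rxrg, and those of the other starts of Otx2, Thrb and Casz1, did not hold these letters. A match describes the sequence and does not show binding in these cells.

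The first comparison asks how the members' levels differed between the sorted groups. Otx2, Prdm1, Casz1 and Thrb were lower in Tomato+ cells, Rxrg was higher, and Crx lay between. Each log2 ratio sets the Tomato+ level over the Tomato- level after 10 CPM is added to both, which understates the change of low genes, and a gene was called at an absolute log2 ratio of 1 or more. At or below -1 lay 4 of the 6 members, beside 6.33% of the 8356 genes with 5 or more counts in at least 10% of the cells of either group. At or above 1 lay 1 of 6, beside 3.51% of those genes. Crx and Thrb did not pass that filter, and over every gene with a count the shares were 3.19% and 1.36%. The median log2 ratio over the 6 members was -1.69, against -0.04 over the filtered genes. Otx2 was the only 1 of the 6 whose title numbers did not overlap between the groups, as was so, in the direction lower in Tomato+, for 3.67% of filtered genes. Rxrg overlapped, and 2.03% of filtered genes did not overlap and were higher in Tomato+. Other cell type markers moved with the groups: at or below -1 lay 14 of 14 cell cycle, 11 of 12 progenitor and 10 of 12 neurogenic genes, and at or above 1 lay 8 of 13 RGC genes. RGC-like cells made up 97.2% of the Tomato+ group and 36.7% of the Tomato- group, and the part of this mix in the members' ratios was not tested beyond the values by cluster given further on. Whether fewer cells carried a transcript or each cell carried less cannot be told apart in a summed level, so shares of cells are given beside it.

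Otx2 (chromosome 14, 48657677 to 48673819, minus strand, GRCm38) reached 182.5 CPM (179.8 to 185.3) in Tomato- cells and 6.33 CPM (5.81 to 6.88) in Tomato+ cells. These and the following intervals are exact at 95%, Poisson for CPM and Clopper-Pearson for shares, and cover counting error only. Over title numbers its level ran from 110.3 through a median of 164.9 to 297.6 CPM in Tomato- cells, and from 0.130 through 0.595 to 56.1 CPM in Tomato+ cells. All Tomato- title numbers thus lay above all Tomato+ ones, and the log2 ratio of -3.56 compares with an SD between title numbers of 0.69. Positive cells were 84 of the kept Tomato- cells, or 23.2% (18.95 to 27.9), and 4 of the kept Tomato+ cells, or 1.22% (0.334 to 3.10). A positive Tomato- cell had from 6 to 992 Otx2 counts, with a median of 140.5. Otx2os1, a noncoding RNA gene on the opposite strand that overlaps Otx2, reached 5 counts in 3 Tomato- cells and had 0 counts in the Tomato+ group. The strand setting of the counting is not given in the sources used here, so reads of the pair may have been exchanged.

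Crx (chromosome 7, 15865947 to 15879968, minus strand) reached 31.01 CPM (29.9 to 32.2) in the Tomato- group, against 14.6 CPM (13.8 to 15.4) in the Tomato+ group. Over title numbers it ran from 4.44 through 20.5 to 75.2 CPM in Tomato- cells and from 0 through 0.347 to 76.6 CPM in Tomato+ cells. The ranges overlapped fully at the top, since title numbers 1 and 10 of the Tomato+ group stood at 76.6 and 51.3 CPM while 7 others were under 1 CPM. Positive cells were 24 Tomato- cells, or 6.63% (4.29 to 9.70), against 4 Tomato+ cells, or 1.22% (0.334 to 3.10). The log2 ratio of -0.74 was smaller than the SD between title numbers of 1.05.

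Prdm1 (chromosome 10, 44437177 to 44528501, minus strand) reached 54.2 CPM (52.7 to 55.7) in the Tomato- group, against 3.89 CPM (3.49 to 4.33) in the Tomato+ group, a log2 ratio of -2.21 beside an SD between title numbers of 0.69. Its title numbers ran from 19.7 through 42.99 to 99.96 CPM in the Tomato- group, against 0 through 0 to 32.96 CPM in the Tomato+ group. Title number 10 alone of the Tomato+ group reached into the Tomato- range. Positive were 40 Tomato- cells, or 11.05% (8.01 to 14.7), and 2 Tomato+ cells, or 0.612% (0.0742 to 2.19).

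Thrb, the thyroid hormone receptor beta gene (chromosome 14, 17660261 to 18038090, plus strand), whose TRbeta2 isoform directs medium-wavelength cone opsin, reached 31.02 CPM (29.9 to 32.2) in the Tomato- group, against 8.18 CPM (7.59 to 8.81) in the Tomato+ group. Gene-level counts do not separate its isoforms. Title numbers ran from 1.07 through 23.1 to 65.2 CPM in the Tomato- group, against 0.130 through 7.15 to 16.8 CPM in the Tomato+ group, so the groups overlapped. The log2 ratio was -1.17 beside an SD of 0.72, and with a mitochondrial limit of 10% it was -0.73, short of the call. Positive cells were 27 Tomato- cells, or 7.46% (4.97 to 10.7), and 11 Tomato+ cells, or 3.36% (1.69 to 5.94).

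Rxrg, the retinoid X receptor gamma gene (chromosome 1, 167598384 to 167639623, plus strand), went the other way, at 71.01 CPM (69.2 to 72.8) in the Tomato+ group, against 21.6 CPM (20.6 to 22.5) in the Tomato- group. Over title numbers it ran from 35.9 through 71.8 to 109.1 CPM in the Tomato+ group, against 2.87 through 26.5 to 38.3 CPM in the Tomato- group. The lowest Tomato+ title number thus fell just under the highest Tomato- ones. The log2 ratio was 1.36 beside an SD of 0.55. Positive were 40.1% (34.7 to 45.6) of Tomato+ cells and 38 Tomato- cells, or 10.5% (7.54 to 14.1). With every cell thinned to 94783 counts, and 33 shallower Tomato+ and 36 shallower Tomato- cells set aside, the shares were 32.99% and 7.98%.

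Casz1 (chromosome 4, 148804429 to 148954889, plus strand) reached 75.7 CPM (73.98 to 77.5) in the Tomato- group, against 5.56 CPM (5.08 to 6.08) in the Tomato+ group, a log2 ratio of -2.46 beside an SD of 0.71. Title numbers ran from 9.86 through 74.6 to 129.1 CPM in the Tomato- group, against 0 through 2.11 to 23.6 CPM in the Tomato+ group. Title number 18 was the 1 Tomato- value within the Tomato+ range. It was the member positive in the most Tomato- cells, 99 or 27.3% (22.8 to 32.3), against 11 Tomato+ cells, or 3.36% (1.69 to 5.94). Its antisense gene Gm13205 had 574 counts in the Tomato- group, against 409 in the Tomato+ group, and no strand setting is known for these either.

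**Figure D1:**
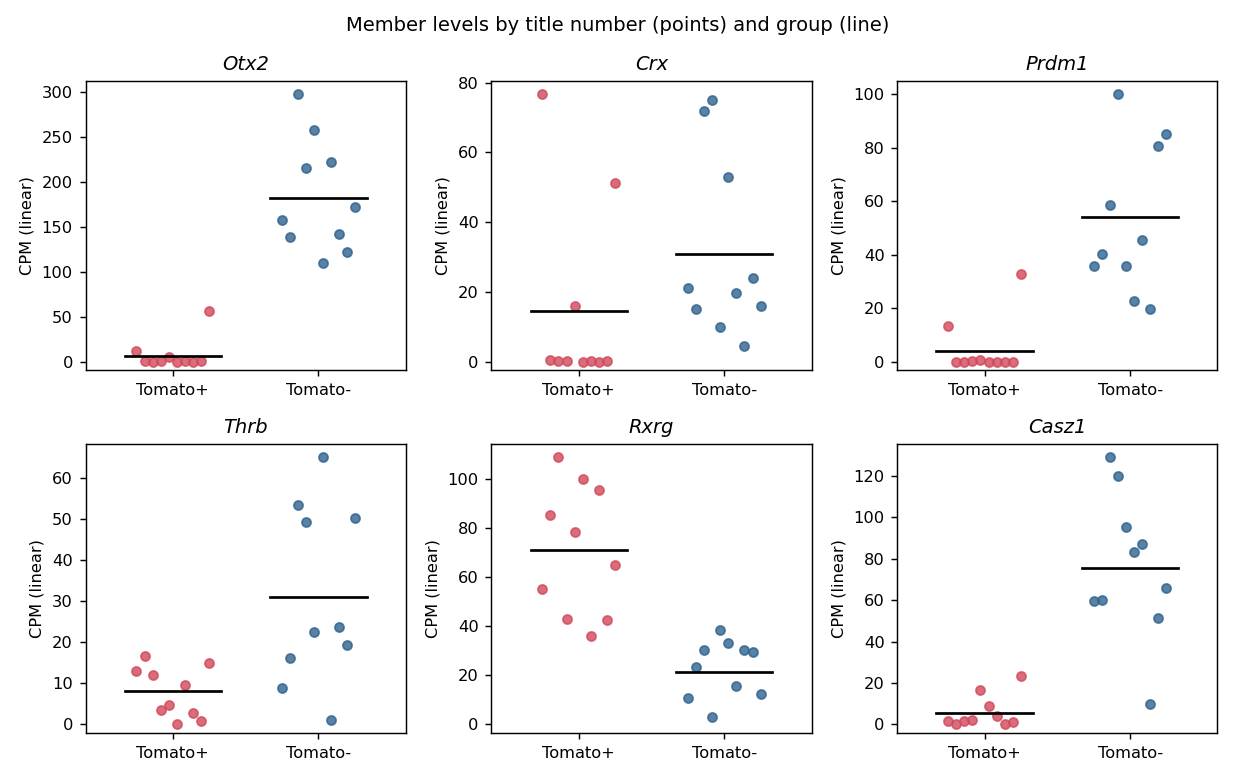
Level of each member in CPM (linear axes, a different scale in each panel) for the 10 title numbers of each group (points) and for the summed group (black line). The Tomato- points of Otx2 (110.3 CPM and up) lie above every Tomato+ point (56.1 CPM and down), while the points of the other members overlap between the groups and those of Rxrg are higher in Tomato+ cells.

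Few Tomato+ cells held Otx2, Crx or Prdm1, and 3 of them held nearly all of these transcripts. Otx2 or Crx reached 5 counts in 5 Tomato+ cells, and 3 of these were positive for 3 or more members. These 3 cells, 1 each of title numbers 5, 10 and 1, held 91.8% of the Otx2 counts of the Tomato+ group, 97.1% of its Crx counts and 98.5% of its Prdm1 counts. They held 60.2% of its Casz1 counts, 19.4% of its Thrb counts and 0.506% of its Rxrg counts. Relative to its own total, the cell of title number 5 had 128.6 CPM of Otx2, 357.5 of Crx, 8.72 of Prdm1, 106.8 of Thrb, 65.4 of Rxrg and 333.6 of Casz1. The cell of title number 10 had 1095 CPM of Otx2, 1017 of Crx, 650.8 of Prdm1, 298.3 of Thrb, 0 of Rxrg and 454.2 of Casz1. The cell of title number 1 had 1183 CPM of Otx2, 7557 of Crx, 1342 of Prdm1, 0 of Thrb, 9.94 of Rxrg and 19.9 of Casz1. All 3 had 0 counts of Slc6a4, the gene that drives the label, and 882.9, 1814 and 1601 CPM of Neurod1, a bHLH factor of photoreceptor precursors. Slc6a4 reached 5 counts in 39.7% of Rxrg-positive and 34.7% of the other Tomato+ cells, so most Tomato+ cells also fell short of 5. Of the 13 listed RGC genes these 3 cells carried 9, 10 and 11 at 5 counts, beside a median of 12 over Tomato+ and 7 over Tomato- cells. The RGC gene Sncg stood at 61.04, 71.2 and 2745 CPM in them. Whether these cells belonged to the sorted population or were carried over was not tested. Without them the log2 ratio of Crx was -1.98, past the call, and that of Otx2 was -4.19, of Prdm1 -2.67, of Casz1 -2.81, of Thrb -1.30 and of Rxrg 1.37.

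Counts below 5 were common, also in RGC-like cells. In Tomato- cells 81 had 1 to 4 Otx2 counts, beside 84 positive ones, and the cells nearest to the threshold had 4 and 6 counts. RGC-like cells, which should lack Otx2, had at least 1 count in 47 Tomato- ones, or 35.3%, but in 30 Tomato+ ones, or 9.43%, at median totals of 323003 and 272691. At 5 or more counts these shares were 9.02% (4.75 to 15.2) and 0.314% (0.008 to 1.74). The share with at least 1 count was higher in Tomato- cells in each of the 5 RGC-like clusters. The source of these low counts was not tested.

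The second comparison asks which members were found together in single Tomato- cells. Otx2, Crx, Prdm1 and Thrb shared cells more often than the other cells held them, beyond the intervals for each pair but Otx2 with Thrb. For Rxrg and Casz1 the intervals overlapped with every other member. At least 2 members were found in 63 cells, or 17.4% (13.6 to 21.7), at least 3 in 21 cells, at least 5 in 8 cells, and all 6 in 0 cells, which allows a share of up to 0.829%. That limit is 3 cells of the total, the rule used here for a count of 0, and the exact interval reaches 1.01%. Exactly 1 member was found in 40.3% of cells and none in 42.3%. Many cells without a given member thus held no other either, and the sole-member counts below are given without such a base share. The most common combinations of more than 1 member were Otx2 with Prdm1 in 16 cells, Rxrg with Casz1 in 8 cells, and Otx2, Crx, Prdm1, Thrb and Casz1 together in 7 cells. Cells of the last kind carried every member but Rxrg.

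Of the 24 Crx-positive cells, 18 were Otx2-positive, or 75% (53.3 to 90.2), against 66 of the other cells, or 19.5% (15.4 to 24.2). Crx-positive cells also carried Prdm1 in 16 of 24, or 66.7% (44.7 to 84.4), against 7.10% (4.602 to 10.4) of the other cells. They carried Thrb in 12 of 24, or 50% (29.1 to 70.9), against 4.44% (2.50 to 7.21). All 3 differences exceeded the counting intervals. Crx was found without any other member in 3 of its 24 cells.

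Prdm1 was the most nested member within Otx2. Of 40 Prdm1-positive cells 32 were Otx2-positive, or 80% (64.4 to 90.9), against 16.1% (12.3 to 20.6) of the others. In the reverse direction 32 of 84 Otx2-positive cells carried Prdm1, or 38.1% (27.7 to 49.3), and 18 of 84 carried Crx, or 21.4% (13.2 to 31.7). Otx2 was the sole member in 41 of its 84 cells, or 48.8%. The level of Otx2 differed among its own positive cells in the same sense, with a median of 1401 CPM in the 32 cells that carried Prdm1 and 326.4 CPM in the 52 that did not. Their middle ranges (first to last quartile) ran from 745.8 to 1999 CPM and from 90.7 to 911.7 CPM, and so overlapped.

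Thrb-positive cells mostly carried Crx or no other member. Of 27, 12 carried Crx, or 44.4% (25.5 to 64.7), against 3.58% (1.86 to 6.17) of the other cells, and 9 carried no other member. The remaining cells carried 1 other member, which was Casz1 in 3, Rxrg in 2 and Prdm1 in 1. Otx2 was found in 11 of the 27, or 40.7% (22.4 to 61.2), against 21.8% (17.5 to 26.6), intervals that overlapped.

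Rxrg was the sole member in 23 of its 38 cells, or 60.5%. Otx2 was found in 5 of the 38, or 13.2% (4.41 to 28.1), against 24.4% (19.8 to 29.4) of the other cells. Prdm1 was found in 2.63% (0.067 to 13.8) against 12.04% (8.70 to 16.1), and Crx in 5.26% (0.644 to 17.7) against 6.79% (4.30 to 10.1). Thrb was found in 7.89% (1.66 to 21.4) against 7.41% (4.80 to 10.8), and Casz1 in 23.7% (11.4 to 40.2) against 27.8% (22.97 to 32.998). The intervals overlapped for each of the 5. With at least 1 count of each gene in place of 5, Otx2 was found in 42.1% of Rxrg-positive cells. At that threshold 45.6% of all Tomato- cells held Otx2, so both shares depend on the threshold. At 5 counts Rxrg-positive cells were also deeper, with a median total of 383086 against 233746.

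Casz1 was the sole member in 67 of its 99 cells. Its share of Otx2-positive cells, 16.2% (9.53 to 24.9), lay below the 25.9% (20.7 to 31.6) among the other cells, with overlapping intervals. It was nevertheless found in 11 of 24 Crx-positive cells, or 45.8% (25.6 to 67.2), against 26.04% (21.4 to 31.1), again with overlap.

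Other genes of the photoreceptor list were counted in the same way, by whether at least 2-fold more of a member's positive cells carried them than of the other Tomato- cells. Of its 29 genes only 6 reached 5 counts in at least 10 cells. Those past the limit were 4 for Otx2, beside 3.95% of 11012 genes, 4 for Crx, beside 5.85%, and 4 for Prdm1, beside 6.27%. For Thrb they were 3, beside 5.52%, and for Casz1 they were 0, beside 5.18%. Of the 12 neurogenic genes 10 passed for Otx2 and 9 for Prdm1, but 3 for Crx, 1 for Thrb and 0 for Casz1. The same counts were made for Rxrg and are not given here.

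**Figure D2:**
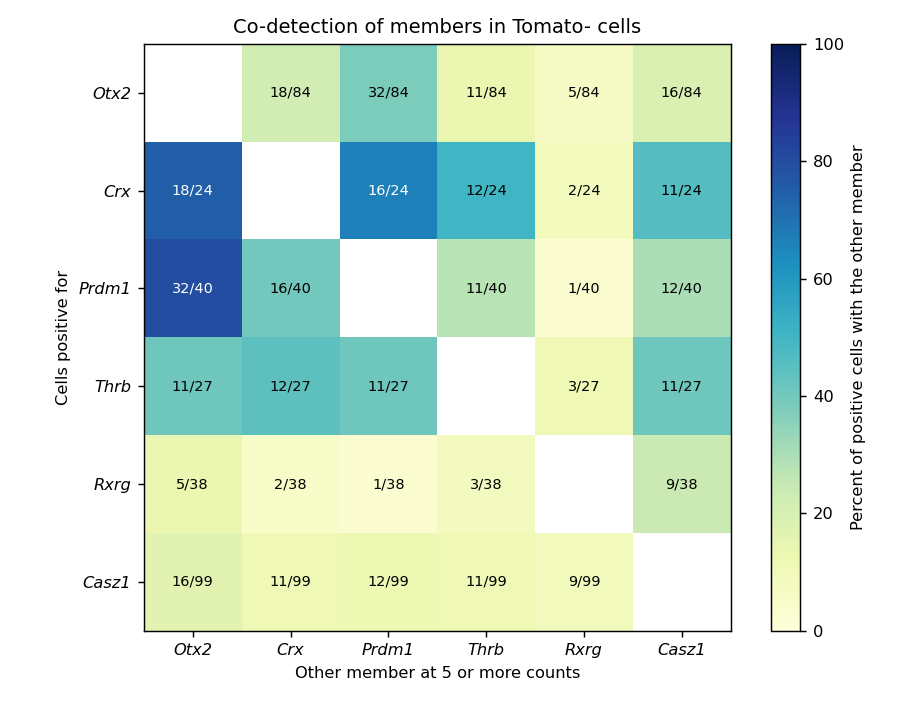
Co-detection in the kept Tomato- cells at 5 or more counts; each square gives, of the cells positive for the row member, how many also carried the column member, with colour for the percentage. The darkest squares are those of Otx2 in Prdm1-positive cells (32 of 40) and in Crx-positive cells (18 of 24), and the highest in the Rxrg row is Casz1 (9 of 38).

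Levels over cells mostly followed the same pattern, as a description over the kept Tomato- cells, which share their pool and differ in depth. Pearson correlations of log2(CPM + 10) were 0.60 between Otx2 and Prdm1, 0.59 between Crx and Prdm1 and 0.52 between Crx and Thrb. They were 0.40 between Prdm1 and Thrb, 0.37 between Otx2 and Crx and 0.22 between Otx2 and Thrb. With Casz1 they ran from -0.04 for Otx2 to 0.20 for Crx, which is close to that of Otx2 and Thrb. With Rxrg they ran from -0.09 for Otx2 to -0.02 for Casz1. Among 11013 genes with 5 or more counts in at least 10 of these cells, the 5 most similar to each member were then read off. For Otx2 they were Neurod1 (0.64), Prdm1, Btg2 (0.58), Neurog2 (0.52) and Dll4 (0.52). Btg2 is an antiproliferative gene, Neurog2 a proneural bHLH factor and Dll4 a Notch ligand of neurogenic cells.

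For Crx the most similar genes were Prdm1, Gngt2 (0.58), Thrb, Rpgrip1 (0.52) and Cngb3 (0.51). Gngt2 encodes a subunit of cone transducin, Cngb3 a subunit of the cone cyclic nucleotide-gated channel, and Rpgrip1 a protein of the photoreceptor connecting cilium. Prdm1 was nearest to Otx2 and Crx, then Ankrd33b (0.56), Neurod1 (0.52) and Gngt2 (0.48). Thrb was nearest to Crx, then Fabp7 (0.45), Cngb3 (0.44), Rpgrip1 (0.43) and Prdm1. Rxrg was nearest to Nrn1 (0.43), Golga7b (0.43), Snhg11 (0.42), Tubb2a (0.41) and Arhgef15 (0.41), none of them members. Casz1 was nearest to the cyclin gene Ccnd1 (0.35), Cp (0.32), Fgf15 (0.30), the Notch effector Hes1 (0.29) and Dapl1 (0.28), the weakest likeness of the 6.

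The third comparison asks what Otx2-positive cells carried without and with Crx. Of the Tomato- cells, 66 had Otx2 only at 5 counts, 18 had both, 6 had Crx only and the remainder had neither. Median totals were 256727, 218658, 203312 and 245638 in that order, and cells with both came from 10 title numbers. Most neurogenic and mitotic genes were more frequent in cells with Otx2 only, and several cone genes in cells with both, which still carried the mitotic gene Top2a in 61.1% and the neurogenic gene Hes6 in 72.2%. Kinds were set by Otx2 and Crx, so only other genes are read between them, as a description.

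Thrb separated these kinds most plainly among the members. It was positive in 11 of 18 cells with both, or 61.1% (35.7 to 82.7), and in 0 of 66 cells with Otx2 only, which allows a share of up to 4.55% by the rule of 3 cells, or 5.44% by the exact interval. Prdm1 was positive in 15 of 18, or 83.3% (58.6 to 96.4), in 17 of 66, or 25.8% (15.8 to 38.01), and in 2.57% (1.04 to 5.23) of cells with neither. Casz1 was positive in 9 of 18, or 50% (26.02 to 73.98), in 7 of 66, or 10.6% (4.37 to 20.6), and in 29.8% (24.4 to 35.6) of cells with neither. Rxrg was positive in 2 of 18 and 3 of 66, and in 12.1% (8.50 to 16.6) of cells with neither. Prdm1, Thrb and Casz1 thus had separate intervals between cells with both and cells with Otx2 only, and Rxrg did not.

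Cells with neither included most RGC-like Tomato- cells, of which 9.02% were positive for Otx2 and 3.76% for Crx. The part of this mix in the differences from cells with neither was not tested. Genes of the neurogenic list were carried by more cells with Otx2 only than with neither. Over the 12 genes of the list the median difference was 30.6 percentage points, beside -0.479 points over 11007 genes. Neurog2 was positive in 63.6% against 10.3% of cells, Btg2 in 72.7% against 19.5%, Gadd45a, a growth arrest gene, in 71.2% against 23.9%, and Insm1, a zinc finger factor of new neurons, in 77.3% against 36.4%. Over 14 cell cycle genes the median difference was 22.2 points, with the mitotic genes Ccnb1 at 53.03% against 21.3% and Nusap1 at 65.2% against 32.7%. Over the 29 photoreceptor genes the median difference was 0, and Neurod1 was at 66.7% against 19.9%. Over 16 amacrine and horizontal cell genes it was -0.852 points, with Foxn4 at 36.4% against 15.8% and Onecut1 at 25.8% against 8.46%.

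Most genes of the neurogenic and cell cycle lists were carried less often by cells with both Otx2 and Crx than by cells with Otx2 only, as a description. Of the 14 cell cycle genes 13 had a share at least 10 percentage points lower, beside 20.6% of the 11007 genes, and Ccnb1 was positive in 5.56% of cells and Nusap1 in 22.2%. Of the 12 neurogenic genes 8 were lower, Neurog2 at 11.1%, Gadd45a at 27.8% and Dll4 at 5.56% against 34.8%. Another 2 were higher, Dll3, a Notch pathway ligand gene, at 61.1% against 24.2%, and Btg2 at 83.3% against 72.7%. Of the 29 photoreceptor genes 6 were among the 11007 with 5 counts in at least 10 cells, and 3 of these 6 were higher, Neurod4, Gngt2 and Cngb3, beside 9.35% of the 11007. Neurod4, a bHLH factor, was positive in 61.1% against 12.1%. Gngt2 and Gnb3, which encode transducin subunits, were each positive in 7 of 18 cells, or 38.9% (17.3 to 64.3), against 1 and 0 of 66. Cngb3 was positive in 33.3% against 1.52%.

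Several genes of mature photoreceptors were not detected at 5 counts in cells with both, while others were found in a few of them. The cone opsin genes Opn1sw and Opn1mw and the gene of the calcium sensor Rcvrn were found at 5 counts in 0 of the 18 cells, which allows shares of up to 16.7% by the rule of 3 cells, or 18.5% by the exact interval; they were picked with their values in view. Nrl, the rod determinant, was positive in 2 of 18. Other genes of the list were found, also picked with their values in view. Impg2 was positive in 5 of 18, or 27.8% (9.69 to 53.5), against 0 of 66 cells with Otx2 only. Gnat2 was positive in 2 of 18 against 1 of 66. Rbp3, Pde6c, Aipl1, Tulp1 and Prph2 were positive in 1 of 18 each. Of the 8 bipolar genes 0 reached 5 counts in at least 10 cells, and the homeobox gene Lhx4 was at 22.2% against 0% in cells with Otx2 only. Over the 13 RGC genes the median difference from cells with neither was -12.9 points in cells with Otx2 only and -13.4 points in cells with both. Sncg was positive in 84.9%, 78.8% and 77.8% of cells with neither, Otx2 only and both. Lists of pigment epithelium, microglia, erythroid and lens genes gave a mean of at most 0.056 positive genes per cell with both, so the listed markers of those types were near 0 in them.

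**Figure D3:**
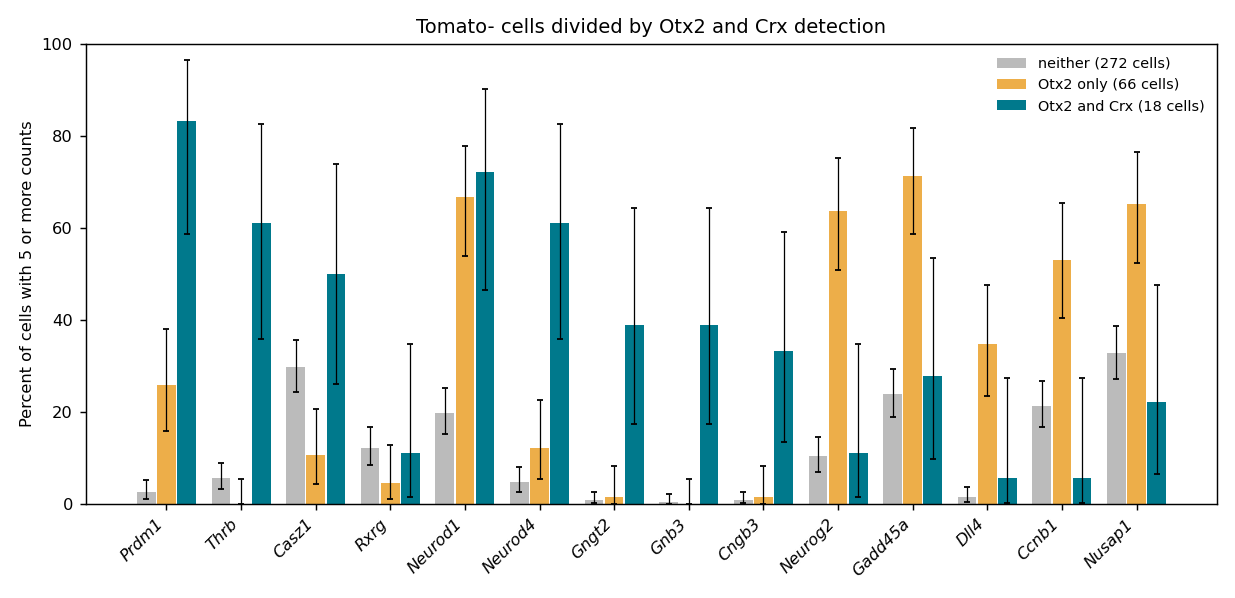
Share of Tomato- cells with 5 or more counts of each gene in cells with neither Otx2 nor Crx, with Otx2 only and with both; bars are percentages and lines exact 95% intervals for counting error. Prdm1, Thrb, Neurod4 and the transducin genes are highest in cells with both, while Neurog2, Gadd45a, Dll4, Ccnb1 and Nusap1 are highest in cells with Otx2 only.

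The fourth comparison places the members among the kinds of retinal cell. The 6 members, Crxos, Otx2os1 and the photoreceptor list were left out of the genes that made the clusters. Otx2 was positive in 34 of 52 neurogenic precursor-like cells, or 65.4% (50.9 to 78.03), in 38.8% (27.1 to 51.5) of an unnamed cluster of 67 cells, in 12.6% (7.23 to 19.9) of progenitor-like cells and in 2.88% (1.54 to 4.88) of RGC-like cells. The first and second of these do not differ beyond their intervals, while each is separate from the RGC-like share. The unnamed cluster, number 5, had raised 6 of 12 progenitor, 6 of 13 RGC, 5 of 12 neurogenic, 5 of 16 amacrine and horizontal cell and 3 of 29 photoreceptor genes. Its 10 leading genes held Tfap2b, Neurod4 and Neurod1 and more genes of other lists than of the progenitor list, so it was given no name.

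Crx was placed differently from Otx2. Cluster 5 held 15 of 28 Crx-positive cells of both groups, and 22.4% (13.1 to 34.2) of its cells were positive. In the neurogenic precursor-like cluster, where Otx2 was highest, Crx was positive in 2 of 52 cells, or 3.85% (0.469 to 13.2), and reached 2.22 CPM against 250.95 CPM in cluster 5. Otx2 stood at 861.2 CPM and 417.8 CPM in these clusters. Prdm1 was found in both, at 34.6% (21.97 to 49.1) of neurogenic precursor-like cells and 23.9% (14.3 to 35.9) of cluster 5, intervals that overlapped.

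Thrb was found in 14.9% (7.40 to 25.7) of cluster 5 and in 14.7% (7.56 to 24.7) of cluster 4, an RGC-like cluster led by Cntn2, Peli2 and Ppp1r17. Of its 38 positive cells in both groups 21 were RGC-like, a class of 451 of the 689 kept cells in which 13 of 88 Otx2-positive cells lay. Cluster 5 held 10 of the 38. With 10 principal components an unnamed cluster of 85 cells held 16 of them, so the placement of Thrb moved with the clustering. Casz1 was found in 49.6% (40.3 to 58.9) of progenitor-like cells and 6.21% (4.16 to 8.85) of RGC-like cells. Casz1-positive Tomato- cells carried a mean of 6.35 of 12 progenitor genes at 5 counts, against 3.81 in the others, and 6.81 of 14 cell cycle genes against 4.47.

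**Figure D4:**
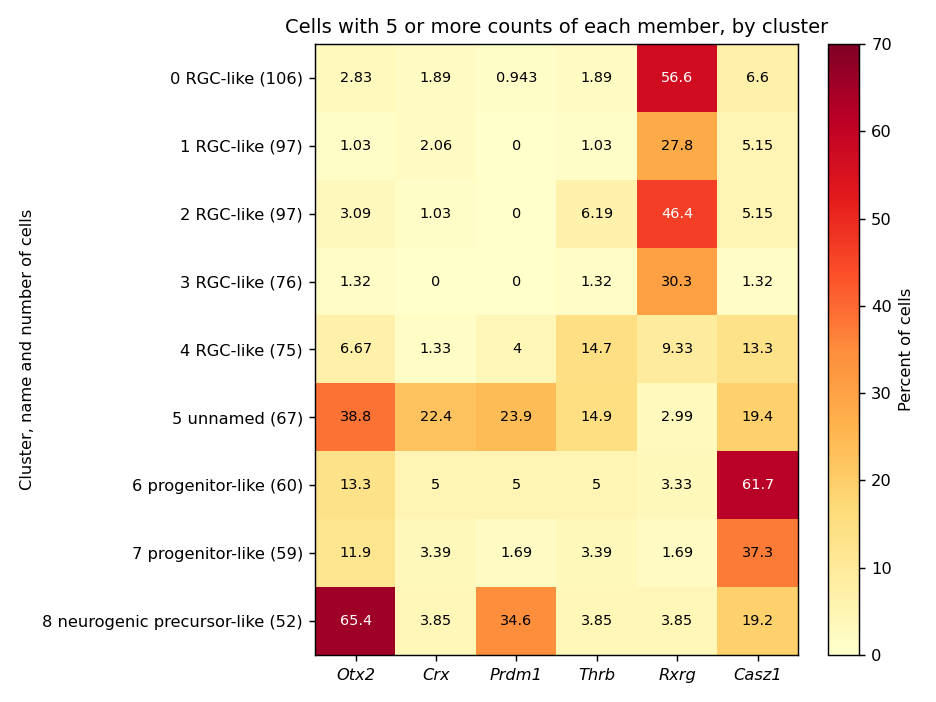
Percent of cells with 5 or more counts of each member (columns) in each of the 9 clusters of both groups together (rows, with the number of cells). Otx2 is highest in cluster 8 (65.4%), Crx in cluster 5 (22.4%), Rxrg in RGC-like cluster 0 (56.6%) and Casz1 in progenitor-like cluster 6 (61.7%).

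With finer clusters (Leiden resolution 2) cluster 5 divided, and a small cluster of 9 cells, 7 Tomato- and 2 Tomato+, held Otx2, Crx and Prdm1 together. Otx2, Crx and Prdm1 were each positive in 9 of 9 cells. Relative to each cell's total, Otx2 ran from 687.9 through a median of 1385 to 7693 CPM, Crx from 110.8 through 1076 to 7557 CPM, and Prdm1 from 492.1 through 1680 to 3334 CPM. Thrb and Casz1 were each positive in 6 of 9, and Rxrg in 0 of 9, with at most 1 count. Neurod1 was positive in 9 of 9, Neurod4 in 8, Gngt2 and Fabp7 in 7, and Gnb3 and Cngb3 in 5. The cluster held 9 of the 28 Crx-positive cells, or 32.1%, but 9 of 88 Otx2-positive cells, or 10.2%. It stayed unnamed under the rule for names, and its cells came from 8 title numbers with totals from 90270 to 295005. Cells this few make the shares descriptions of these cells.

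Rxrg was found mostly in RGC-like cells, which were 451 of the 689 kept cells and held 95.9% of its positive cells in both groups. In the Tomato- group alone 32 of its 38 positive cells were RGC-like, beside 36.7% of all Tomato- cells. Rxrg was positive in 35.9% (31.5 to 40.5) of RGC-like cells, 2.52% (0.523 to 7.19) of progenitor-like cells and 3.85% (0.469 to 13.2) of neurogenic precursor-like cells. Rxrg-positive Tomato- cells carried a mean of 11.3 of 13 RGC genes, against 7.03 in the other Tomato- cells, with the POU factor Pou4f1 in 81.6% against 26.5% and the RNA-binding protein gene Rbpms in 81.6% against 28.7%. Their greater depth, given above, moves with this, and its part in the result was not tested. In CPM all 13 RGC genes were higher in the Rxrg-positive Tomato- cells, from Pou4f2 at 85.5 against 77.6 CPM to Sncg at 6318 against 1829 CPM. Thra, the thyroid hormone receptor alpha gene, was positive in 86.8% against 37.7% of these Tomato- cells. Rxra, the partner receptor gene, was positive in 2.63% against 3.395% of them. In the Tomato+ group Pou4f2 was lower in CPM in Rxrg-positive cells, at 107.4 against 128.7 CPM, as was Isl1, at 819.0 against 852.6 CPM. Their shares of positive cells went the other way, at 77.1% against 56.6% for Pou4f2 and 99.2% against 90.3% for Isl1. The remaining listed RGC genes were higher in CPM in Rxrg-positive Tomato+ cells. Thra was positive in 86.3% of Rxrg-positive against 81.1% of other Tomato+ cells, but stood at 216.2 against 273.7 CPM.

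Within 4 of the 5 RGC-like clusters the shares of Rxrg-positive cells were close between the groups. In cluster 0 it was positive in 57.8% of 83 Tomato+ cells, against 52.2% (30.6 to 73.2) of the 23 Tomato- cells. In cluster 1 the shares were 26.6% of 79 against 33.3% (13.3 to 59.01) of 18 cells. In cluster 2 they were 46.4% of 84 against 46.2% (19.2 to 74.9) of 13, and in cluster 3 they were 30.6% of 62 against 28.6% (8.39 to 58.1) of 14. With so few Tomato- cells these intervals are wide. In cluster 4 it was positive in 30% (6.67 to 65.2) of the 10 Tomato+ cells, against 6.15% (1.70 to 15.01) of the 65 Tomato- cells. The intervals overlapped in all 5 clusters. Over the RGC-like class the Tomato+ share was 40.9% (35.4 to 46.5) and the Tomato- share 24.1% (17.1 to 32.2). Cluster 4 held 65 of the Tomato- RGC-like cells but 10 of the Tomato+ ones. The groups differed in their mix of clusters, and the part of this mix in the summed Rxrg difference was not tested. Sums over all cells differed 3.29-fold, and sums over RGC-like cells were 72.1 CPM against 44.4 CPM.

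**Figure D5:**
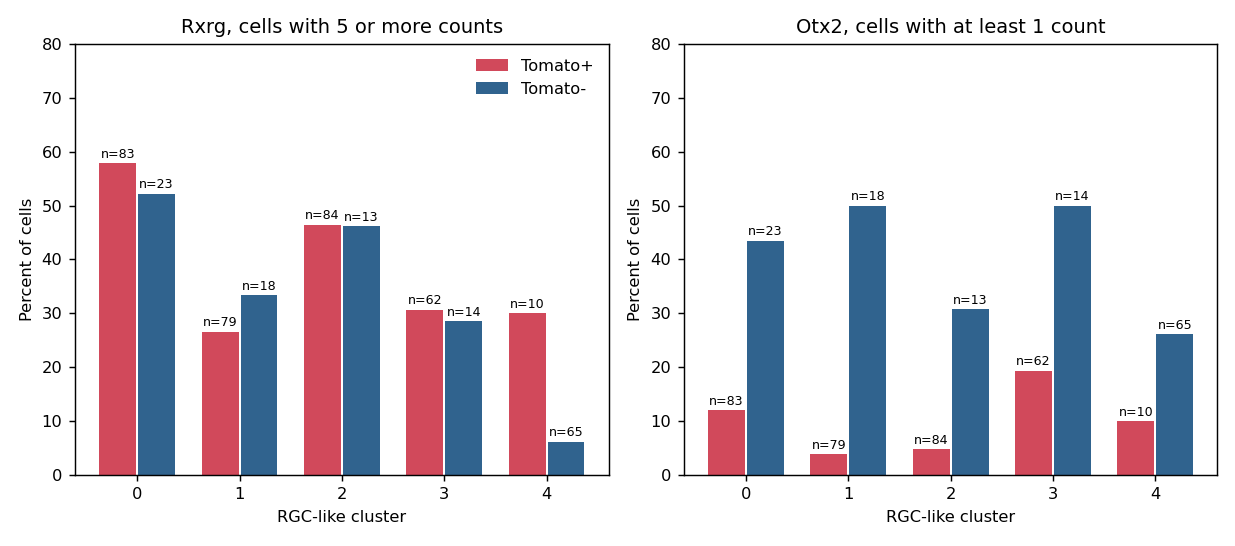
Percent of cells in each RGC-like cluster with 5 or more Rxrg counts (left) and with at least 1 Otx2 count (right), by group, with the number of cells above each bar. Rxrg shares are close between the groups in clusters 0 to 3 (57.8% and 52.2% in cluster 0), while low Otx2 counts are more frequent in Tomato- cells of all 5 clusters.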

How the data were processed

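Single-cell RNA libraries were made with SmartSeq2 per the labels' protocols, and the series title names C1. The deposited values are whole-number counts per gene and cell, not normalized, with headers ending in "umi"; whether they are molecules or reads is not given in the sources used here, nor are the aligner, counter and annotation. The submitters' processing notes name Seurat 2.3, R 3.4.4 and mm10. The table held 1 further column with no match among the labels, which was set aside. There were 0 identical columns, and 93 repeated symbols stayed in the totals.

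Cells with at most 20% mitochondrial counts were kept, and a limit of at least 1000 genes removed 0 more. Counts were summed per group and given as CPM, with log2 ratios at a pseudocount of 10 CPM, and shares of cells at 5 or more counts. Each group is 1 pool, so no p-value was made, and the SD between title numbers measures only the spread between sets of cells, which may be technical. The samples' scaling alternatives were TMM (edgeR 4.0.16) and median of ratios (DESeq2 1.42.0). Clusters came from scanpy 1.11.5 and leidenalg 0.10.2 with 2000 variable genes, 20 principal components, 15 neighbours and resolution 1. A marker counted as raised in a cluster when 20% of its cells were positive and its CPM was at least 2-fold the lower quartile over clusters. A cluster took the name of the list with the largest share raised, given at least 3 such markers and no other list with more of its 10 leading genes. No doublet caller was run; an alternative left out the 5% of cells with the highest totals. The ratio step was run on simulated group sums of 49399 genes for the Tomato+ over Tomato- comparison. It recovered 200 of 200 genes changed 4-fold, with 0 of 3836 unchanged genes called. The simulation held Poisson counting error only, so it checks the calculation and not the spread between cells. Only genes above a set Tomato- level were changed or scored. Crx, Thrb and Rxrg, at 31.01, 31.02 and 21.6 CPM there, lay below it.

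The members, gene lists and comparisons were chosen with earlier results of these data known. Named genes are the members, the 5 genes most correlated with each, up to 4 genes of a list with the largest difference in share, and overlapping genes; predicted genes and genes tied to sex were not named. Gene positions are from GENCODE M21 on GRCm38, and promoter sequences from RefSeq on GRCm38.p6, with chromosome 18 left out of the search. Apart from these promoter windows, no genome or protein sequence was used here.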

Additional observations from a re-analysis of the deposited data

Results flagged for a closer look

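Otx2 in the Tomato+ cells of title number 10 stood at 56.1 CPM, far from the next highest of the 10 title numbers at 12.4 CPM, a gap of 0.780 of their range. Prdm1 in the same cells stood at 32.96 CPM against 13.3 CPM for the next, a gap of 0.596 of the range. Both exceed the critical value of 0.466 for 10 values. Of the 24 kept cells of this title number, 1 had 1095 CPM of Otx2 and 650.8 CPM of Prdm1. Over 12 groups of title numbers 2 were picked out in this way, and chance picks out about 1 in 20.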

How the results depend on the processing

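No paired analysis was possible because the title numbers differ between the groups and no animal is named per cell. Of 502 values of 29 results under alternatives, 485 stayed within tolerance, 17 moved past it and 0 changed sign. The tolerance was 1 SD between title numbers for a log2 ratio, the exact 95% interval for a share and a factor of 1.5 for a count, so a call could change within it. The share of Tomato- cells with at least 2 members was 42.3% at 1 or more counts, and from 16.4% to 19.02% without single title numbers. The share of Crx-positive cells with Otx2 ran from 71.4% to 80% without single title numbers and from 62.7% to 85% over all alternatives. The number of members at or below -1 was 4 to 5 without single title numbers and 3 to 5 over all alternatives: Crx passed the call without title number 1 (-1.33), with no mitochondrial limit (-1.03), and with a pseudocount of 1 CPM (-1.04), and Thrb fell short of it with a limit of 10% (-0.73). An alternative added after the data were seen left out the 3 Tomato+ cells named above (Crx -1.98). With the pseudocount of 1 CPM, Otx2, Prdm1 and Casz1 were at -4.65, -3.50 and -3.55. TMM and median of ratios raised the ratios by 0.12 and 0.14 before the pseudocount. Depth limits shares of cells: the share of Rxrg-positive Tomato+ cells was 32.99% after thinning, 33.6% at 10 counts and 52.9% at 1 count.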
